A study of Homo sapiens with 6 samples.

Results

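The genes described here are 3 cadherin genes (CDH1, CDH2 and CDH3), 5 genes of transcription factors of the epithelial-to-mesenchymal transition (SNAI1, SNAI2, ZEB1, ZEB2 and TWIST1), the mesenchymal cytoskeletal gene VIM and the epithelial splicing regulator gene ESRP1. They were taken by symbol from the count tables, where each of the 10 was found among 64253 genes. RNA had been sequenced from PC-3, an established human prostate cancer cell line grown from a bone metastasis. In 3 libraries the cells carried an shRNA against CdGAP (labelled shCDGAP, here shCdGAP), and in 3 they carried a control shRNA (labelled shCONTROL, here shCon). CdGAP, the product of ARHGAP31, is a GTPase-activating protein for Rac1 and Cdc42. The comparison asks whether transcripts of this gene group differed after CdGAP depletion. Per the methods, the depleted cells were selected with puromycin and expanded from single cells into clones, and this is not stated for the control cells. The effect of the shRNA and that of clonal selection therefore cannot be told apart. The 3 libraries of a group are described as independent samples, but nothing says that they came from separately infected cells, so the p-values measure the spread between these samples.

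In epithelia, E-cadherin holds neighbouring cells together through catenins that bind its cytoplasmic tail. During an epithelial-to-mesenchymal transition, repressors of the SNAIL, ZEB and TWIST families bind E-box motifs in the promoters of E-cadherin and other epithelial genes, vimentin filaments are built up, and the splicing regulators of the ESRP family are lost. The miR-200 family and the ZEB proteins repress each other, which makes this pair a switch between the epithelial and the mesenchymal state.

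The mature members of the miR-200 family are shown because they are known to target ZEB1 and ZEB2, and they fall into a pair of seed groups. Sequences and positions are those of RefSeq (GRCh38.p14, plus strand), written 5′ to 3′, and capitals mark the seed, bases 2 to 8. The seed AACACUG is shared by hsa-miR-141-3p (chr12:6964155-6964176) and hsa-miR-200a-3p (chr1:1167916-1167937). The seed AAUACUG is shared by hsa-miR-200b-3p (chr1:1167160-1167181), hsa-miR-200c-3p (chr12:6963742-6963764) and hsa-miR-429 (chr1:1169055-1169076).
hsa-miR-141-3p: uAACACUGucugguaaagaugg
hsa-miR-200a-3p: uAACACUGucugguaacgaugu
hsa-miR-200b-3p: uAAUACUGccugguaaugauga
hsa-miR-200c-3p: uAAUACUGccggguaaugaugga
hsa-miR-429: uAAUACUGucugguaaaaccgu

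These libraries were not made for small RNAs, so they count reads on the genes and not mature miRNAs. MIR141, MIR200C and their host gene MIR200CHG had 0 reads in all 6 libraries. A count of 0 allows up to 3 reads per library. MIR200A had 0, 1 and 0 reads in shCdGAP replicates 1, 2 and 3, and 1, 3 and 2 in the shCon replicates. MIR200B had 0, 3 and 1 reads against 0, 0 and 0, and MIR429 had 3, 6 and 5 reads against 2, 4 and 1. None of these genes was counted deeply enough to be tested.

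Promoter windows (250 bases before and 50 after the start site) from RefSeq were searched for 4 of the 10 genes, in 11 windows. CDH1, CDH3, SNAI1, SNAI2, TWIST1 and ESRP1 were not searched. The motif was the E-box CAGGTG, or CACCTG on the other strand, to which SNAIL and ZEB proteins are known to bind. It was present in 2 windows, both of ZEB1, and in none of the 2 windows of CDH2 or the single windows of ZEB2 and VIM. Among all 35116 promoter windows of the table, 20.6% held the motif. The more general E-box CANNTG, which includes it, was present in 6 of the 11 windows and in 68.7% of all windows. The 250 bases before a start site are printed for the first of the 7 ZEB1 windows, which holds the motif once, starting at position -57 (in capitals), and for VIM, the most abundant of the 10 transcripts, whose window holds neither form. The other ZEB1 window with the motif, the third, holds it at positions -242, -85 and 34. The printed ZEB1 region is chr10:31318167-31318416 and the VIM region chr10:17227991-17228240, both GRCh38.p14, plus strand. Annotation places exons of the antisense gene ZEB1-AS1 in the ZEB1 region. A match describes the letters only.
ZEB1: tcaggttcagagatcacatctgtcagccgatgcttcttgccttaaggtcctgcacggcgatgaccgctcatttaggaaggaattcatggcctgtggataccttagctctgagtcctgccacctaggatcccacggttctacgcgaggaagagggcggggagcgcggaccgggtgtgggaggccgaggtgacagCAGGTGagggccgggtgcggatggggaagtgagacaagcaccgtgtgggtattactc
VIM: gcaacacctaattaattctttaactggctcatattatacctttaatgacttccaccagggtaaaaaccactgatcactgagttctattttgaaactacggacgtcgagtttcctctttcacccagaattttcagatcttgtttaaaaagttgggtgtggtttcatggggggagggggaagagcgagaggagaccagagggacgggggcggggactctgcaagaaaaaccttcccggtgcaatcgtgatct

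Libraries held between 33182796 and 43154039 counted reads, and the 10 most abundant genes took 3.37% to 3.60% of them. ARHGAP31 (chromosome 3, 119294373 to 119420714) was counted at 26.4, 27.1 and 26.9 CPM in shCdGAP replicates 1, 2 and 3 and at 58.9, 60.6 and 58.2 CPM in shCon, so every depleted library lay under every control library. CPM are counts scaled to the TMM-adjusted library totals. By edgeR's quasi-likelihood test its log2 fold change was -1.14 (SE 0.0409, adjusted p = 8.75e-08). One library stood apart. The SD over genes of the log2 difference to shCdGAP replicate 2 was 0.217 for replicate 1 and 0.236 for replicate 3, against 0.0775 between replicates 1 and 3 and 0.0733 to 0.0902 within shCon. For 12756 genes, shCdGAP replicates 1 and 3 both lay on one side of all shCon libraries. In 47.9% of these genes replicate 2 lay to the shCon side of both, including any where it passed beyond shCon. Values that this library moves strongly are given below with and without it. Fits without shCdGAP replicate 2 hold only replicates 1 and 3 of that group, which lay close together. Their p-values measure the smaller spread that remains and not the spread of all the depleted libraries. The epithelial keratins of the cell line were present, with 193 ± 9.44 CPM of KRT8 in shCdGAP and 185 ± 1.30 in shCon (SD, n = 3 each), and 270 ± 24.5 against 253 ± 3.91 CPM of KRT18. KLK2, KLK3, TMPRSS2 and FOLH1, genes of androgen-responsive luminal cells, had at most 2 reads in any library.

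All 10 genes passed the filter on low counts. At an adjusted p under 0.01, 3 rose in shCdGAP (SNAI1, TWIST1 and VIM), 1 fell (CDH2) and 6 did not pass. Over the 16439 genes tested, 46.2% passed, 24.1% higher and 22% lower, so the share among the 10 genes was close to that of all genes. With a log2 fold change above 1 in size as well, 1 of the 10 genes was called, SNAI1, against 12.8% of all genes (8.56% higher and 4.19% lower). The 3 shCdGAP libraries did not overlap the 3 shCon libraries for 6 of the 10 genes (CDH1, CDH2, SNAI1, TWIST1, VIM and ESRP1), against 67.1% of all genes. The median log2 fold change of the 10 genes was -0.12, against 0.01 over all tested genes. Without shCdGAP replicate 2, the same 3 genes rose and 4 fell (CDH1, CDH2, CDH3 and ESRP1), against 60% of 16727 genes then passing, 30% in each direction.

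**Figure D1:**
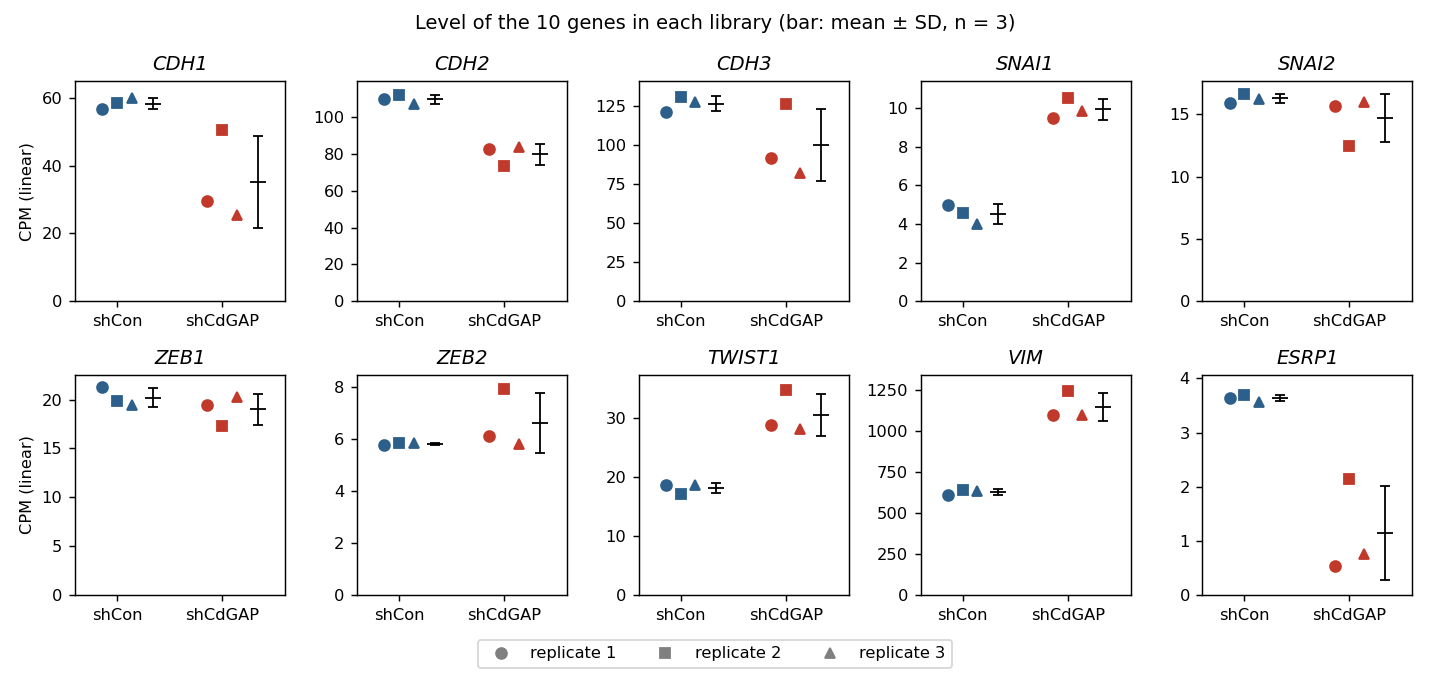
Level of each of the 10 genes in each library, in CPM on a linear axis starting at 0, with circles, squares and triangles for replicates 1, 2 and 3 and a bar for the mean ± SD (n = 3). SNAI1, TWIST1 and VIM lie higher in all shCdGAP libraries, CDH2 lies lower in all of them, and for CDH1, CDH3 and ESRP1 the square of shCdGAP replicate 2 lies near or towards the shCon points.

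The adhesion genes come first. CDH1 (chromosome 16, 68737225 to 68835548) encodes E-cadherin, the epithelial member. It was counted at 29.6, 50.5 and 25.4 CPM in shCdGAP replicates 1, 2 and 3, and at 56.6, 58.4 and 59.8 CPM in shCon. All shCdGAP libraries lay under all shCon libraries, but replicate 2 was much nearer to them than replicates 1 and 3. The means were 35.2 ± 13.4 CPM and 58.3 ± 1.63 CPM (SD, n = 3 each). The log2 fold change of -0.72 (SE 0.265) did not pass in edgeR (adjusted p = 0.0636). Leaving out shCdGAP replicate 2 took it to -1.09 with an adjusted p of 9.45e-18. That fit holds only replicates 1 and 3 of shCdGAP, so its p-value measures the spread without the deviating library. Leaving out any other library kept the log2 fold change between -0.76 and -0.55 without passing. The within-group SD of log2 CPM of CDH1 ranked at the 98.8th percentile of tested genes in shCdGAP and at the 38.7th in shCon.

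CDH3 (chromosome 16, 68636189 to 68722616) encodes P-cadherin, found in basal epithelial cells, and ends 14609 bp before CDH1 begins. Its levels were 91.55, 126 and 82.1 CPM in shCdGAP replicates 1, 2 and 3, against 121, 131 and 127 CPM in shCon. Replicate 2 fell inside the range of the control libraries, so the groups overlapped. CDH3 averaged 99.9 ± 23.2 CPM in shCdGAP and 126.6 ± 5.05 CPM in shCon (SD, n = 3 each), and its log2 fold change of -0.34 (SE 0.157) did not pass in edgeR (adjusted p = 0.109). Without shCdGAP replicate 2 the value was -0.55 (adjusted p = 2.62e-07). Both genes of this locus thus had the same library order within shCdGAP, with replicate 2 above the mean of replicates 1 and 3 by 0.87 on the log2 scale for CDH1 and 0.54 for CDH3.

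CDH2 (chromosome 18, 27950966 to 28177446) encodes N-cadherin, the member usually gained in mesenchymal cells. It was counted at 82.9, 73.4 and 83.6 CPM in shCdGAP replicates 1, 2 and 3 and at 110 ± 2.27 CPM (SD, n = 3) in shCon, where the libraries ran from 107 to 112. The groups did not overlap, and replicate 2 was here the library farthest from shCon. CDH2 fell by 27.1%, a log2 fold change of -0.46 (SE 0.0534, adjusted p = 9.32e-05 in edgeR), and it passed with any library left out, between -0.50 and -0.41.

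Levels of different genes are compared as RPKM, that is CPM per kilobase of annotated exon. On this scale CDH2 was the highest of the cadherins in shCon at 22.2 ± 0.458 RPKM, followed by CDH3 at 20.3 ± 0.809 and CDH11 at 19.5 ± 0.947, whose libraries overlapped, with CDH1 at 9.43 ± 0.263 (SD, n = 3 each). In shCdGAP, CDH11 was the highest at 25.0 ± 0.545 RPKM, and CDH2 (16.2 ± 1.15) and CDH3 (16.0 ± 3.72) could not be ordered. Summed over 22 cadherin genes, the level was 68.5, 75.5 and 66.2 RPKM in shCdGAP replicates 1, 2 and 3, and 76.5, 79.4 and 76.6 RPKM in shCon. CDH1 made up 8.01 ± 2.47% of that sum in shCdGAP (10.8% in replicate 2) and 12.2 ± 0.406% in shCon (SD, n = 3 each). The RPKM ratio of CDH1 to CDH2 was 0.286, 0.551 and 0.243 in shCdGAP replicates 1, 2 and 3, and 0.413, 0.418 and 0.447 in shCon. It lay under the control libraries in replicates 1 and 3 and over them in replicate 2, so these libraries gave no single direction for the balance of E-cadherin to N-cadherin transcripts.

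Of the 5 transcription factor genes, SNAI1 and TWIST1 rose, and SNAI2, ZEB1 and ZEB2 did not pass. SNAI1 (chromosome 20, 49982999 to 49988886) encodes SNAIL, a zinc-finger repressor of CDH1. Its reads numbered 384, 459 and 339 in shCdGAP replicates 1, 2 and 3, and 210, 194 and 132 in shCon. This corresponds to 9.47, 10.5 and 9.86 CPM against 5.01, 4.60 and 3.99 CPM, with no overlap. SNAI1 rose 2.20-fold by group means, from 4.53 ± 0.508 to 9.96 ± 0.540 CPM (SD, n = 3 each), with a log2 fold change of 1.13 (SE 0.103, adjusted p = 1.93e-05 in edgeR). The range over libraries left out was 1.04 to 1.19, and the call held each time. Tested against a log2 fold change of 1, SNAI1 did not pass (adjusted p = 0.365), so a change greater than that limit was not shown.

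SNAI2 (chromosome 8, 48917690 to 48921740) encodes SLUG, the close relative of SNAIL. It had 15.7, 12.5 and 15.9 CPM in shCdGAP replicates 1, 2 and 3 and 15.9, 16.6 and 16.3 CPM in shCon, and the groups overlapped. The log2 fold change was -0.15 (SE 0.0938, adjusted p = 0.203 in edgeR), and it ran from -0.22 to -0.05 over the libraries left out, -0.05 being without shCdGAP replicate 2. On the RPKM scale the ratio of SNAI1 to SNAI2 was 0.426, 0.375 and 0.333 in shCon replicates 1, 2 and 3, and 0.818, 1.14 and 0.837 in shCdGAP. SLUG transcripts were therefore the more abundant of the pair in all shCon libraries, and SNAIL transcripts exceeded them in 1 library, shCdGAP replicate 2.

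ZEB1 (chromosome 10, 31318495 to 31529814) and ZEB2 (chromosome 2, 144388001 to 144524580) encode zinc-finger homeobox repressors. ZEB1 was counted at 19.5, 17.3 and 20.3 CPM in shCdGAP replicates 1, 2 and 3, against 21.3, 19.9 and 19.4 CPM in shCon, a log2 fold change of -0.09 (SE 0.0729, adjusted p = 0.322 in edgeR). ZEB2 was counted at 6.12, 7.94 and 5.82 CPM against 5.77, 5.85 and 5.84 CPM, with a log2 fold change of 0.19 (SE 0.126, adjusted p = 0.219 in edgeR) that was 0.03 without shCdGAP replicate 2. The groups overlapped for both genes, and neither passed under any of the 16 alternatives tried. Over the libraries left out, the ZEB1 value ran from -0.15 to -0.04 and the ZEB2 value from 0.03 to 0.27. The antisense gene ZEB1-AS1, which overlaps the ZEB1 promoter region printed above, had 59, 69 and 44 reads in shCdGAP and 59, 60 and 60 in shCon (log2 fold change -0.09, SE 0.171, adjusted p = 0.678 in edgeR).

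TWIST1 (chromosome 7, 19020991 to 19117672) encodes a basic helix-loop-helix factor that binds E-boxes. It was counted at 28.8, 34.7 and 28.2 CPM in shCdGAP replicates 1, 2 and 3 and at 18.7, 17.2 and 18.6 CPM in shCon. All shCdGAP libraries lay above all shCon libraries, with replicate 2 the highest. TWIST1 rose 1.68-fold by group means, from 18.2 ± 0.873 to 30.5 ± 3.59 CPM (SD, n = 3 each). The log2 fold change was 0.75 (SE 0.0855, adjusted p = 7.86e-05 in edgeR), from 0.64 without shCdGAP replicate 2 to 0.80 over the libraries left out, passing each time.

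VIM (chromosome 10, 17228259 to 17237593) encodes vimentin, the intermediate filament protein of mesenchymal cells. Its libraries held 1100, 1247 and 1099 CPM in shCdGAP replicates 1, 2 and 3, and 609, 638 and 636 CPM in shCon, far apart. VIM rose 1.83-fold by group means (1149 ± 85.3 against 628 ± 16.5 CPM, SD, n = 3 each), with a log2 fold change of 0.87 (SE 0.0538, adjusted p = 1.85e-06 in edgeR) and a range of 0.80 to 0.89 over the libraries left out. The antisense gene VIM-AS1, which shares its start region with VIM, had 341, 459 and 306 reads in shCdGAP and 206, 242 and 174 in shCon. It rose as well (log2 fold change 0.81, SE 0.112, adjusted p = 0.000259 in edgeR). VIM-AS1 reads came to 0.807 ± 0.0402% of VIM reads in shCdGAP and 0.844 ± 0.0478% in shCon (SD, n = 3 each). Whether some of them came from VIM transcripts was not tested.

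ESRP1 (chromosome 8, 94641074 to 94707466) encodes an RNA-binding protein that sets epithelial splice forms. It had 22, 93 and 26 reads in shCdGAP replicates 1, 2 and 3, and 153, 156 and 118 in shCon. All shCdGAP libraries were under all shCon libraries, at 0.543, 2.13 and 0.756 CPM against 3.65, 3.70 and 3.57 CPM, and replicate 2 lay about midway between the groups. The log2 fold change of -1.63 (SE 0.419) was the greatest in size of the 10 genes and did not pass in edgeR (adjusted p = 0.0121). With the replicate number as a block it was -1.74 and passed (adjusted p = 0.00937), and by DESeq2 it was -1.67 and passed (adjusted p = 7.39e-05). Without shCdGAP replicate 2 it was -2.51 (adjusted p = 8.84e-15). The within-group spread of ESRP1 in shCdGAP was at the 99.5th percentile of tested genes. Its paralogue ESRP2 was far more abundant, with 12.4 ± 0.318 RPKM in shCdGAP and 13.1 ± 0.183 RPKM in shCon against 0.235 ± 0.177 and 0.746 ± 0.0129 RPKM of ESRP1 (SD, n = 3 each). ESRP2 had a log2 fold change of -0.07 (SE 0.0376, adjusted p = 0.120 in edgeR). Gene counts do not show splicing.

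**Figure D2:**
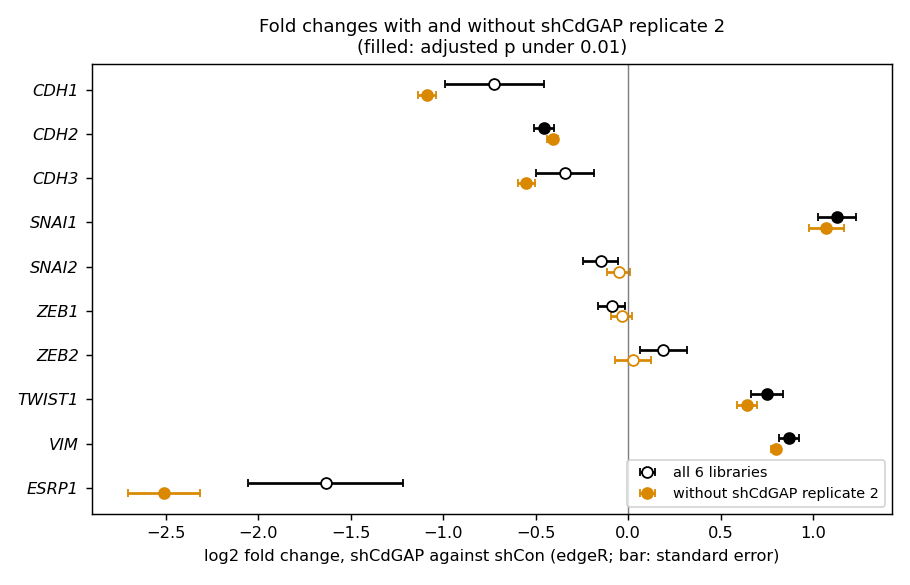
Log2 fold change of each of the 10 genes, shCdGAP against shCon, with all 6 libraries (black) and without shCdGAP replicate 2 (orange). Bars are standard errors and filled points have an adjusted p under 0.01. CDH1, CDH3 and ESRP1 are open with all libraries and filled without replicate 2, at -1.09, -0.55 and -2.51, while SNAI1, TWIST1, VIM and CDH2 are filled both times.

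The weight of shCdGAP replicate 2 differed among the genes. Relative to the mean of replicates 1 and 3, its log2 CPM was higher by 1.20 for ESRP1, 0.87 for CDH1, 0.54 for CDH3, 0.39 for ZEB2, 0.28 for TWIST1, 0.18 for VIM and 0.12 for SNAI1. It was lower for CDH2 (-0.18), ZEB1 (-0.20) and SNAI2 (-0.33). For the epithelial genes CDH1, CDH3 and ESRP1 this library was the nearest to shCon, whereas for SNAI1, TWIST1 and VIM it was the farthest from it. In the same library, therefore, SNAI1, TWIST1 and VIM were at their highest while CDH1 was at its highest among the depleted libraries. Knockdown of ARHGAP31 was alike in the 3 shCdGAP libraries, within 26.4 to 27.1 CPM.

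On the RPKM scale, the order of the 10 genes in shCon was VIM (126 ± 3.33), CDH2, CDH3, CDH1, TWIST1 (8.93 ± 0.429), SNAI2 (7.13 ± 0.151), SNAI1 (2.69 ± 0.301), ZEB1 (2.33 ± 0.112), ESRP1 and ZEB2 (0.442 ± 0.00347; SD, n = 3 each). The libraries of CDH1 and TWIST1 overlapped in this order, and so did those of SNAI1 and ZEB1. In shCdGAP, VIM stood at 231 ± 17.2 RPKM, and TWIST1 at 15.0 ± 1.77 RPKM overlapped CDH2 and CDH3. SNAI2 (6.44 ± 0.841), SNAI1 (5.91 ± 0.320) and CDH1 (5.69 ± 2.18) overlapped each other. ZEB1 (2.20 ± 0.181) and ZEB2 (0.503 ± 0.0874) came next, and ESRP1 was the lowest. The RPKM ratio of CDH1 to VIM was 0.0216, 0.0325 and 0.0186 in shCdGAP replicates 1, 2 and 3, and 0.0747, 0.0735 and 0.0756 in shCon, without overlap and with replicate 2 nearest to shCon. In bulk RNA, fewer cells with a transcript and less of it per cell cannot be told apart.

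Genes that act with these 10 were taken from 8 lists, which are described by counts and medians beside the 46.2% of all genes that passed and the median of 0.01. Counts without shCdGAP replicate 2 stand beside the 60% of all genes passing in that fit, 30% in each direction. More calls in a list there thus go with more calls over all genes. In the list of catenins and cadherin-bound proteins, 9 of 10 genes were tested, 3 rose and 2 fell, and the median log2 fold change was 0.07. VCL, the actin-binding protein vinculin, rose from 1263 ± 3.49 to 1946 ± 43.4 CPM (log2 fold change 0.62), and CTNNB1, β-catenin, rose from 552 ± 12.9 to 770 ± 29.6 CPM (0.48; SD, n = 3 each). JUP, plakoglobin, fell from 130 ± 2.06 to 80.6 ± 5.71 CPM (-0.69). CTNND2, a neural δ-catenin, had 0 reads in all shCdGAP libraries and 22, 26 and 13 in shCon, at least 6.67-fold lower against a floor of 3 reads per library. CTNNA1, αE-catenin, which PC-3 cells are known to lack, had 25 to 63 reads per library, and its rise of 0.84 (adjusted p = 0.00991 in edgeR) did not pass under 9 of 16 alternatives, the replicate block among them (0.0207). CTNNA3 (0.20, adjusted p = 0.0484), CTNND1 (-0.02, 0.613), VEZT (-0.02, 0.803) and AFDN (0.07, 0.417) did not pass in edgeR.

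Of 19 other cadherin genes, 8 were tested, 4 rose and 2 fell, with a median of 0.36. CDH11, the mesenchymal OB-cadherin, rose from 262 ± 12.7 to 335 ± 7.30 CPM (0.36, adjusted p = 0.000107), and CDH6 rose from 2.95 ± 0.450 to 10.6 ± 0.510 CPM (1.84, adjusted p = 2.20e-06 in edgeR; SD, n = 3 each). CDH13, a cadherin without a cytoplasmic tail, fell from 14.7 ± 0.524 to 6.69 ± 2.03 CPM (-1.12). CDH12, at 12.4, 19.1 and 12.05 CPM in shCdGAP replicates 1, 2 and 3 against 8.996 ± 0.211 CPM in shCon (SD, n = 3), rose by 0.69 and sat at the threshold (adjusted p = 0.00997 in edgeR, and 0.0325 to 0.0368 without any one shCon library). Without shCdGAP replicate 2 its log2 fold change was 0.43 (adjusted p = 2.07e-06 in edgeR). Among the 8 genes, the same 4 rose in that fit. Genes of the list that passed the filter on low counts only there are left out of this count. The 2 other genes that passed with all libraries, CDH10 (2.76) and CDH7 (-1.67), had at most 100 reads in any library. They are named to complete the count, after their values were seen.

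Of 14 other transcription factors of the transition, 9 were tested, 1 rose and 3 fell, with a median of -0.17. PRRX2, a homeobox factor, fell from 4.94 ± 0.159 to 1.47 ± 0.171 CPM (-1.74), and its paralogue PRRX1 rose from 0.436 ± 0.200 to 2.56 ± 0.535 CPM (2.60; SD, n = 3 each), the latter named after its value was seen. TCF3, which encodes the E2A proteins, fell by 0.33 on the log2 scale. Without shCdGAP replicate 2, 5 fell. Of 18 regulators of the epithelial programme, the miRNA genes above among them, 7 were tested, 1 rose and 2 fell (4 without shCdGAP replicate 2), with a median of -0.14. TP63, a basal epithelial factor, rose by 1.03, ELF3 fell by 0.99, and FOXA1, a luminal pioneer factor, fell from 256 ± 4.89 to 175 ± 3.97 CPM (-0.55; SD, n = 3 each).

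Of 23 epithelial genes known as targets of SNAIL or ZEB repression, 19 were tested, 6 rose and 1 fell, with a median of 0.20. ST14, the membrane protease matriptase, rose from 1.90 ± 0.164 to 26.9 ± 7.09 CPM (3.82, SE 0.217), and EPCAM, an epithelial adhesion molecule, rose from 83.0 ± 1.35 to 212 ± 10.6 CPM (1.35, SE 0.0436; SD, n = 3 each). PATJ, a polarity scaffold, rose by 0.88. The gene that fell was MARVELD2, the tricellular junction protein tricellulin (-0.46). In this list 7 genes rose and 6 fell without shCdGAP replicate 2. Among the 18 mesenchymal cytoskeletal and matrix genes, 16 were tested, 8 rose and 2 fell (4 without replicate 2), with a median of 0.16. COL3A1 rose by 3.00, ITGA5, a fibronectin receptor subunit, by 2.27, COL1A1 by 1.67 and FN1, fibronectin, by 0.68, while AXL, a receptor tyrosine kinase, fell from 65.4 ± 2.34 to 32.0 ± 6.26 CPM (-1.03; SD, n = 3 each) and COL5A1 fell by 1.36, the latter named after its value was seen. FN1 lost its call when weakly counted genes were kept in the fit, and when shCon replicate 3 was left out (adjusted p = 0.0372 and 0.0101 in edgeR). Of 7 fibroblast markers, which share COL1A1, COL1A2 and COL3A1 with this list, 6 were tested and 5 rose, with a median of 2.84. PDGFRA rose from 1.75 ± 0.160 to 11.1 ± 6.63 CPM (2.68, and 2.05 without shCdGAP replicate 2), PDGFRB from 0.107 ± 0.0537 to 1.02 ± 0.247 CPM (3.17) and LUM from 0.219 ± 0.0406 to 1.79 ± 0.289 CPM (3.01; SD, n = 3 each). Their summed level, 352 to 369 CPM in shCdGAP and 304 to 310 CPM in shCon, was mostly COL1A2, which did not pass (279.5 ± 3.45 against 286.5 ± 3.23 CPM, SD, n = 3 each), and DCN had 0 to 5 reads per library. The part of other cells in these values was not tested.

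The 19 corepressors and partners through which SNAIL and ZEB proteins act or are degraded were all tested, 2 rose and 13 fell, with a median of -0.30. AJUBA, a LIM-domain corepressor of SNAIL, fell from 86.3 ± 0.415 to 42.8 ± 2.15 CPM (-1.01), and RCOR1, the CoREST scaffold, fell from 182 ± 2.17 to 117 ± 2.02 CPM (-0.64; SD, n = 3 each). EED, a subunit of Polycomb complex PRC2, and BTRC, the ubiquitin ligase subunit that marks SNAIL for degradation, each fell by 0.49. LOXL2, a lysyl oxidase that binds SNAIL, rose from 89.0 ± 2.17 to 132 ± 3.54 CPM (0.57; SD, n = 3 each), and LOXL3, named after its value was seen, rose by 1.10. Leaving out shCdGAP replicate 2 gave 3 that rose and 14 that fell. Of the 3 antisense genes, ZEB2-AS1 had at most 1 read per library and was not tested. Of 5 endothelial markers, PECAM1, KDR and TEK were tested, with adjusted p of 0.181, 0.742 and 0.394 in edgeR. PECAM1 (log2 fold change -1.14) and KDR (-0.60) passed without shCdGAP replicate 2. Their list summed to 5.94 to 13.2 CPM in shCdGAP and 10.2 to 11.9 CPM in shCon, and the summed level of leukocyte markers did not exceed 0.528 CPM.

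**Figure D3:**
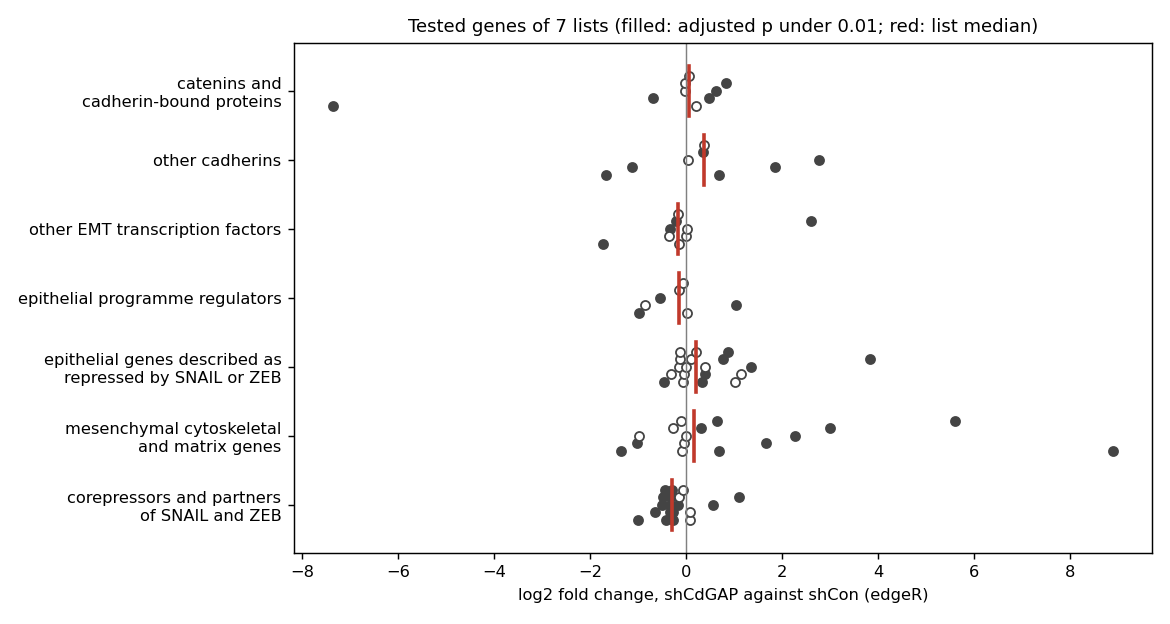
Log2 fold change, shCdGAP against shCon, of each tested gene of 7 lists (1 point per gene, filled where the adjusted p is under 0.01) with the list median as a red line. Medians lie between -0.30 (corepressors, 13 of 19 lower) and 0.36 (other cadherins), and the points beyond 5 in size are CTNND2, FAP and POSTN, with at most 1 read in every library of one group, so that their fitted values are no measured folds.

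Genes averaging 3 or more in log2 CPM were compared with CDH1 (10281 genes) and SNAI1 (10282 genes) library by library. Those whose libraries ran most like CDH1 were EFNB1, an ephrin ligand (root mean square difference 0.0620 on the log2 scale over 6 libraries), then ACER3, ANTXR2, PRICKLE1 and SCD5 (up to 0.0960). EFNB1 was counted at 56.5, 97.1 and 52.0 CPM in shCdGAP replicates 1, 2 and 3, and at 119, 120 and 115 CPM in shCon. All 5 of these genes had their highest shCdGAP level in replicate 2, as CDH1 did. For SNAI1 the nearest genes were PAQR7 (0.0583), SLC4A8, ROS1, DNMT3B and PMP22 (up to 0.0824). PAQR7, a membrane progestin receptor, was counted at 21.0, 20.8 and 19.2 CPM against 10.3, 9.79 and 8.54 CPM. These genes were chosen for their likeness, so no test applies.

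**Figure D4:**
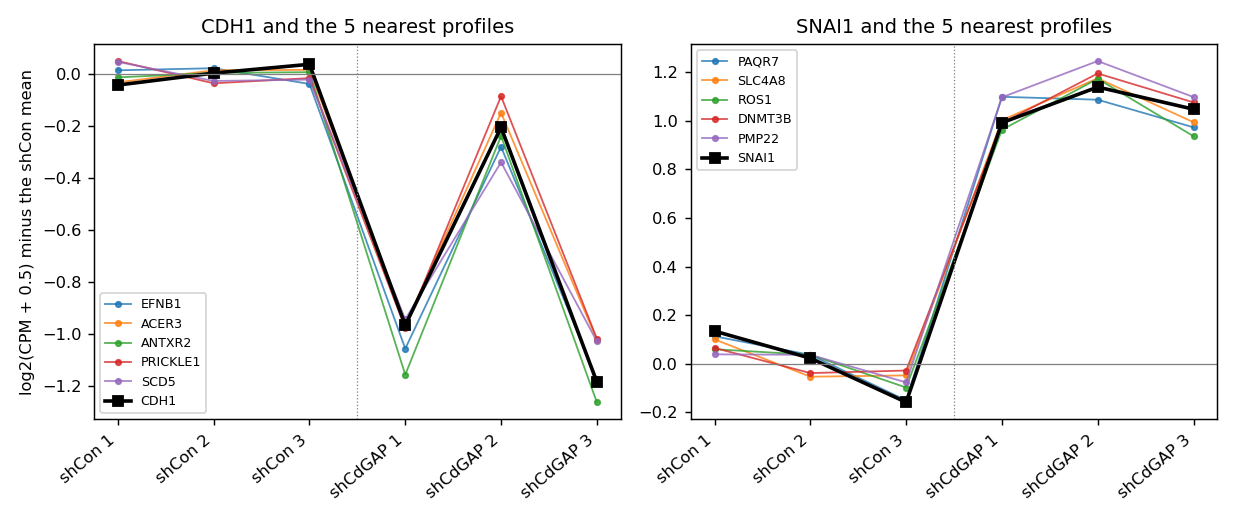
Log2(CPM + 0.5) in each library relative to the gene's own shCon mean, for CDH1 (left) and SNAI1 (right) in black and their 5 nearest genes in colour. Lines join the values of one gene and imply no order of libraries. The CDH1 group lies near -1 in shCdGAP replicates 1 and 3 and between -0.34 and -0.09 in replicate 2, whereas the SNAI1 group lies near 1 in all shCdGAP libraries.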

How the data were processed

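For each library the authors deposited a table of raw gene counts, made with STAR 2.5.1b on GRCh38 and featureCounts on Ensembl release 77. Its header gives featureCounts version 1.6.0, strand-specific and in pairs, whereas the submitters' processing notes name version 1.4.6 and the methods a single-read kit. Read totals per library were 33182796 to 43154039. Positions of genes were read from these tables.

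All genes were fitted together for shCdGAP against shCon by the quasi-likelihood F test of edgeR 4.0.16 in R 4.3.3 (TMM factors, filterByExpr, robust prior, no block), with Benjamini-Hochberg adjustment over 16439 genes and a threshold of 0.01. The SE was obtained as the size of the log2 fold change over the root of F. CPM use TMM-adjusted totals, and RPKM divide these by annotated exon length. Counts were simulated from these libraries with 200 changed genes and the same spread in both groups. On these, edgeR called 83% of genes changed by 1 and 93% of genes changed by 2 on the log2 scale, and 9 of 15971 unchanged genes. In the data 46.2% of genes passed, and the median within-group SD of log2 CPM was 0.0979 in shCdGAP and 0.0521 in shCon. The simulated rates are thus a check of the code and do not give the power or error here. With 3 libraries a group, an exact two-sided permutation p reaches 0.1 at the lowest, and no such test was used.

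Same-numbered libraries of both groups deviated together over 10282 genes (r = 0.124, 0.124 and 0.120, each over the limit of 0.1 set for pairing, although shCdGAP replicate 3 and shCon replicate 1 also reached 0.102). By that limit the numbers pair the libraries, though the labels do not say what they mark. The methods name DESeq2 and give no model terms, so the main fit has no block. The blocked fit is an alternative, printed where it changes a call of a named gene for which the alternatives were looked up. The other alternatives were DESeq2 1.42.0, 3 other scalings, 2 other filters, no robust prior, other thresholds, and each library left out. Members and lists were chosen with earlier results of these data known. Named genes are the 10 members, ARHGAP31, all tested catenins, markers, up to 5 genes per list with the largest called changes (average log2 CPM of at least 1, no overlap between groups), and the 5 nearest profiles of CDH1 and SNAI1. Others are marked. A few list genes are not reported here.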

Additional observations from a re-analysis of the deposited data

How the results depend on the processing

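Across 16 alternatives, SNAI1, TWIST1, VIM and CDH2 kept their calls except in the test against a log2 fold change of 1, where none of the 10 genes was called (0 higher, 0 lower; their values stayed 1.13, 0.75, 0.87 and -0.46), 658 of all genes were higher and 340 lower, and 10 list genes were higher and 2 lower, against 26 and 25 at first. SNAI2, ZEB1 and ZEB2 passed under none. The count of members lower, 1 at first, was 2 by DESeq2, without a robust prior, with the replicate block and at an adjusted p under 0.05, since ESRP1 then passed (log2 fold change -1.67, -1.63, -1.74 and -1.63), and it ranged from 1 to 4 with libraries left out, 4 being without shCdGAP replicate 2; why that library stands apart was not tested. Over the libraries left out the value of ESRP1 ranged from -2.51 to -1.30, that of CDH1 from -1.09 to -0.55 and that of CDH3 from -0.55 to -0.23. The replicate block, under which 7229 genes passed, also ended the call of CTNNA1 (adjusted p = 0.0207 in edgeR). It changed no other call among the members, ARHGAP31, the tested catenins and the list genes named here by the rule. For the other genes named here, calls under the block were not looked up. Of 575 values of ARHGAP31 and the named list genes under these alternatives, 525 kept direction and side of the threshold, 45 lost their call, 1 gained one and 4 turned sign. Those that turned were near zero: CTNND1 with library totals only (0.0028), VEZT with library totals only (0.0087) and over the libraries left out (-0.0609 to 0.0328), and AFDN over the libraries left out (-0.0221 to 0.1116), both turning without shCdGAP replicate 2. With the motif CANNTG in place of CAGGTG or CACCTG, 6 windows matched in place of 2. The SEs of CDH1, CDH3 and ESRP1 were 0.265, 0.157 and 0.419 with all libraries and 0.0484, 0.0455 and 0.194 without shCdGAP replicate 2.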

Other observations

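The 20 nearest tested genes around each member (10 on either side of the chromosome) gave the regional level of change, as a description. Over all tested genes, 50.9% had a positive log2 fold change. CDH1 and CDH3 each count among the neighbours of the other. Around CDH1, 18 of 20 had a negative log2 fold change, with a median of -0.20 and a range of -0.70 (SNTB2) to 0.40 (HAS3), and around CDH3, which shares most of these neighbours, 17 of 20 did, also with a median of -0.20. The CDH1 value of -0.72 (SE 0.265) was under all 20 of its neighbours, but SNTB2 (-0.70) lay within that SE of it. One of the neighbours is ESRP2, the paralogue of ESRP1 (-0.07). Around VIM, 15 of 20 neighbours had a positive value, with a median of 0.30 and a range of -2.05 to 2.21. For the other members the median lay between -0.16 (CDH2) and 0.12 (ZEB2), and the ESRP1 value of -1.63 was under all of its neighbours, whose lowest was -1.01. Each group of neighbours holds 20 genes of one region, and the part of the region in the members' values was not tested.

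KRT19, a simple-epithelium keratin, rose from 170 ± 5.06 to 348 ± 89.5 CPM (SD, n = 3 each; log2 fold change 1.03, SE 0.179, adjusted p = 0.00367 in edgeR), with shCdGAP replicate 2 again the highest at 19638 reads against 12068 and 10112. Without that library its log2 fold change was 0.79 (adjusted p = 9.64e-27 in edgeR).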
